A study of Mus musculus with 6 samples.

Results

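The expression of 37 genes of glycolysis and of the response to low oxygen was compared between Tyr-H and Tyr-L cells, which are subclones of B16, a melanoma cell line from C57BL/6 mice. The 37 genes were taken by their symbols from the 20788 genes that had a value in at least 1 of 6 RNA sequencing libraries. They comprise 4 transporters of glucose and lactate, 17 glycolytic enzymes, 3 regulatory kinases and 11 HIF targets outside glycolysis. The remaining genes are 2 HIF alpha subunits, Hif1a and Epas1. All 37 had a value in all 6 libraries and all passed the filter on low values.

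Glycolysis splits glucose into pyruvate, and lactate dehydrogenase then converts pyruvate to lactate, which leaves the cell through monocarboxylate transporters. Tumor cells, melanoma cells included, often run this route at a high rate even when oxygen is present. When oxygen is low, prolyl hydroxylases of the Egln family no longer mark HIF alpha proteins for destruction, and HIF alpha binds DNA together with Arnt and raises the transcription of glycolytic genes and of genes for oxygen supply, acid removal and mitophagy. HIF alpha is regulated mainly as a protein, so an mRNA level of Hif1a does not give its activity.

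Tyr-H and Tyr-L cells are labelled with high and low tyrosinase activity, tyrosinase being the first enzyme of melanin synthesis. Each group had 3 libraries, and both were grown in low-glucose DMEM with serum, in a humidified incubator with no low-oxygen treatment stated. The subclones were picked as single colonies and expanded. The study describes its results in general as repeated in independent experiments, but the labels do not say for these libraries if separate cultures, or more than 1 clone, stand behind them. The p-values then measure only the spread between these libraries, which may be technical. Tyr itself was at 10.7, 9.52 and 9.80 FPKM in Tyr-L libraries 1, 2 and 3 and at 23.8, 20.6 and 19.7 FPKM in Tyr-H libraries 1, 2 and 3, in the direction of the labels. FPKM, the unit of all levels here, is the number of fragments set relative to transcript length and to all mapped fragments of the library.

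Depth was estimated from the smallest steps between low values at 18800000 to 21400000 fragments per library. All 7 markers of pigment cells were listed, and their summed level was 7343 to 7660 FPKM in Tyr-L and 5438 to 5958 FPKM in Tyr-H, with 6 of the 7 lower in Tyr-H. Of 8 immune cell markers only 2 were listed, with a summed level of 3.06 to 4.45 FPKM carried by Cd68, and Ptprc was among those not listed. Endothelial and keratinocyte markers summed to at most 0.0540 and 0.0349 FPKM, none of 5 erythroid markers was listed, and fibroblast markers summed to 0.558 to 0.582 FPKM in Tyr-L and 0.811 to 1.00 FPKM in Tyr-H.

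HIF binds a short core motif, ACGTG or GCGTG, and the promoters of 6 of the genes are shown because they include 4 of the called genes and 2 enzymes with small differences. The windows reach from 250 bases before to 50 bases after the transcription start in RefSeq for GRCm38.p6 and read 5′ to 3′ along the transcribed strand, with the core motif on either strand in capitals. The motif on the opposite strand reads CACGT or CACGC, and where matches on both strands overlap, as in CACGTG, they form 1 capital run. Car9 is at chr4:43506776-43507075 on the plus strand, Egln3 at chr12:54203825-54204124 on the minus strand, Slc16a3 at chr11:120948817-120949116 on the plus strand, Eno2 at chr6:124769624-124769923 on the minus strand, Pgk1 at chrX:106186850-106187149 on the plus strand and the first window of Ldha at chr7:46845554-46845853 on the plus strand.
Car9: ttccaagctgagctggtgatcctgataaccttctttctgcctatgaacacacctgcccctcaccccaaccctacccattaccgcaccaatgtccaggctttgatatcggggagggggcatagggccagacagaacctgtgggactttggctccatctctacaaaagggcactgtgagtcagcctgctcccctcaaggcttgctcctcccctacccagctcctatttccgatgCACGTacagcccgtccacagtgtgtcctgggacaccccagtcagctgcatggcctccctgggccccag
Egln3: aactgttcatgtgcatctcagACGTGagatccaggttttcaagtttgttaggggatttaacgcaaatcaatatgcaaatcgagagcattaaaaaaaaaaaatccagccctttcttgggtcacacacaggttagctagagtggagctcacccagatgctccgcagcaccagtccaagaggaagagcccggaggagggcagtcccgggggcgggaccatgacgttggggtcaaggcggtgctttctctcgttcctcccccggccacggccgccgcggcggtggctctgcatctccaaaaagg
Slc16a3: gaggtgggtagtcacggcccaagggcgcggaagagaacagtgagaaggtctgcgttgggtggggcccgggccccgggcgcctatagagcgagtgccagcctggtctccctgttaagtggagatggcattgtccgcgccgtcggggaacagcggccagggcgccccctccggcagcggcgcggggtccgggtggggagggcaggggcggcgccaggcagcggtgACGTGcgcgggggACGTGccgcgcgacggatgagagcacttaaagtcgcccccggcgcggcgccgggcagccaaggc
Eno2: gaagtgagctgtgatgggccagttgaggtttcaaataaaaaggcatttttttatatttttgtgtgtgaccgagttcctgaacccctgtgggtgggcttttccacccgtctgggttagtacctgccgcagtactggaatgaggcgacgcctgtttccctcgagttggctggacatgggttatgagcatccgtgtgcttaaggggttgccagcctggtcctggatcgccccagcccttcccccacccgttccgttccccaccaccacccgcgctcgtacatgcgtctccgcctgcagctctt
Pgk1: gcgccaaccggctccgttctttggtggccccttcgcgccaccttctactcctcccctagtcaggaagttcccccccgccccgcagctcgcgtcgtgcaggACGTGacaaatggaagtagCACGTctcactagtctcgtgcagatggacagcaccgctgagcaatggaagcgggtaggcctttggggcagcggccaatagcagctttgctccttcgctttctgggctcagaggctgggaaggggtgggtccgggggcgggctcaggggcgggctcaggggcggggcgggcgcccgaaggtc
Ldha: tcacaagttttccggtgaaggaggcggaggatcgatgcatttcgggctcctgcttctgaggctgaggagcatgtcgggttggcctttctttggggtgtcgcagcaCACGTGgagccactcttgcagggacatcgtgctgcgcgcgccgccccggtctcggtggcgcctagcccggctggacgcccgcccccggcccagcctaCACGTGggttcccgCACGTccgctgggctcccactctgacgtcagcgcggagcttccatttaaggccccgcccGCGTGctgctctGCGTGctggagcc
Car9 and Egln3 held 1 match each, starting at position -18 in Car9 and at position -229 in Egln3, counted from the transcription start. Slc16a3 and Pgk1 held 2 each, and Ldha held 7 matches in 5 capital runs. Eno2, which had the largest fold change of the 37 genes, held none in this window.

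RefSeq promoters were found for 33 of the 37 genes, all but Slc2a3, Epas1, Bnip3l and Ndrg1. The motif was present for 30 of the 33 genes (90.9%), beside 46.7% of all 27025 genes with a promoter window. Promoters rich in CpG hold these letters more often, and among windows with at least 15 CpG the motif was present for 73.0% of genes. Genes with several windows have more chances of a match, and counted per window the motif was in 77.6% of the 49 windows of the members, beside 71.4% of the windows with at least 15 CpG and 43.8% of all windows. All 9 HIF targets with a window and 14 of the 17 enzymes had it, and the 3 without it were Eno2, Gpi1 and Tpi1. Ldha, which had the most matches of the 6 windows shown, differed little between the groups. A match describes the letters in a window and not an occupied site.

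Across the 37 genes, 24 were higher in Tyr-H at an adjusted p of at most 0.05 (limma over all genes), 5 were lower and 8 did not pass. Under median ratio scaling, where the median of all genes was -0.01, 29 passed as higher and 1 as lower. The counts that follow are for the values as deposited. Of all 14336 tested genes, 17.9% passed as higher and 39.9% as lower, 57.8% in all. With a log2 fold change of at least 1 added, which is the rule for a call here, 5 of the 37 were called higher, namely Eno2, Slc16a3, Egln3, Ndrg1 and Car9, and none was called lower, against a background of 2.96% called higher and 5.78% called lower. The groups did not overlap for 31 of the 37 genes, with Tyr-H above in 24 and below in 7, while over all genes Tyr-H lay above in 20.2% and below in 43.8%. For a gene whose groups do not overlap, the exact permutation test of 3 against 3 libraries gave p = 0.1, the smallest value it can give.

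The median log2 fold change of the 37 genes was 0.34, beside -0.15 over all tested genes. All fold changes are differences of log2(FPKM + 0.1), Tyr-H minus Tyr-L. In such bulk RNA, a gene used by more of the cells and a gene used more by each cell cannot be told apart. The median of all genes moved to -0.01 under median ratio scaling, and each fold change can be read against that shift of the whole transcriptome. Among the calls over all genes, 33.9% were higher in Tyr-H with the deposited scaling, 48.4% with median ratio scaling and 55.3% with quantile normalization. Genes with high levels were more often higher in Tyr-H: of the 650 genes at a mean level of 100 FPKM or more, 40.9% passed as higher, with a median of 0.04. The 10 members at that level were all enzymes, of which 7 passed as higher, with a median of 0.33. Between 10 and 100 FPKM 13 of 17 members passed as higher, beside 21.9% of all genes there, and between 1 and 10 FPKM 4 of 9 did, beside 16.3%.

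**Figure D1:**
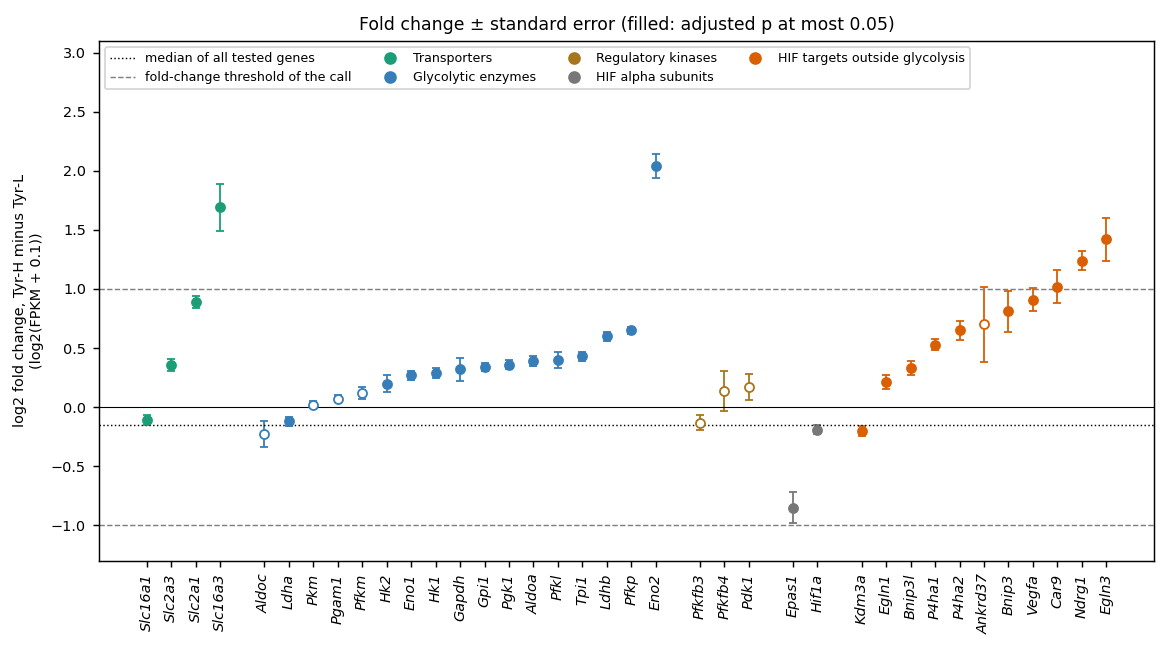
Log2 fold change of each of the 37 genes, Tyr-H minus Tyr-L on log2(FPKM + 0.1), with its standard error, grouped by role; filled points had an adjusted p of at most 0.05 (limma), the dotted line is the median of all tested genes (-0.15) and the dashed lines are the fold-change threshold. Most enzymes lie between 0 and 0.65 and Eno2 stands alone at 2.04, while the HIF targets spread from -0.20 to 1.42.

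The glucose transporters were both higher in Tyr-H. Slc2a1 (Glut1, the main glucose carrier of many dividing cells) was at 23.0, 21.1 and 21.7 FPKM in Tyr-L and at 39.3, 39.8 and 43.0 FPKM in Tyr-H, with a log2 fold change of 0.89 ± 0.05 (SE) and an adjusted p of 1.2e-06 by limma. All 3 Tyr-H libraries lay far above the Tyr-L libraries, and the gene stayed just under the fold-change threshold as deposited but crossed it at 1.04 under median ratio scaling. Slc2a3 (Glut3, a carrier with high affinity for glucose) was at 15.8 to 16.7 FPKM in Tyr-L and 20.2 to 21.7 FPKM in Tyr-H, a log2 fold change of 0.36 (limma adjusted p = 0.00015). Slc2a1 overlaps Mir1957a on the same strand and Gm12867 and Gm12868 on the opposite strand, and Slc2a3 overlaps Gm4482, so fragments there could belong to either gene, as for the other overlapping genes named below. Slc2a3 and Gm4482 lie on the same strand, and for genes on opposite strands the strand setting is not given in the sources used here.

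The lactate transporters differed from each other. Slc16a3 (Mct4, a monocarboxylate carrier associated with lactate export; ENSMUSG00000025161, chr11:120948480-120960868) was at 13.1, 6.80 and 9.94 FPKM in Tyr-L libraries 1, 2 and 3 and at 26.6, 33.7 and 33.8 FPKM in Tyr-H libraries 1, 2 and 3. It was called higher, with a log2 fold change of 1.69 ± 0.20 (SE, limma adjusted p = 8.2e-05), and the lowest Tyr-H library was still above the highest Tyr-L library. Slc16a1 (Mct1, a carrier that works in both directions) was at 50.6, 52.9 and 50.1 FPKM in Tyr-L and at 48.2, 47.8 and 46.0 FPKM in Tyr-H. Its groups did not overlap and its log2 fold change was -0.11 (limma adjusted p = 0.028), but the sign turned to 0.04 under median ratio scaling. The adjusted p of Slc16a1 rose to 0.094, 0.051 and 0.082 when Tyr-L 2, Tyr-H 2 or Tyr-H 3 was left out. Slc16a1 overlaps Gm43581 and Gm43585 on the same strand, and Slc16a3 overlaps no annotated gene. Mct4 was 16.2% ± 4.6 (SD, n = 3) of the summed FPKM of both carriers in Tyr-L and 39.8% ± 3.7 (SD, n = 3) in Tyr-H.

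Of the 17 glycolytic enzymes, 12 passed as higher in Tyr-H, Ldha passed as lower, and Pfkm, Aldoc, Pgam1 and Pkm did not pass. Over all tested genes 17.9% passed as higher and 39.9% as lower. At 100 FPKM or more, where 10 of the enzymes lay, 40.9% of genes passed as higher. The median log2 fold change of the enzymes was 0.32, with 0.23 after rescaling to equal totals, 0.48 under median ratio scaling and 0.25 under quantile normalization. Most of the increases were small and had narrow errors, and 1 enzyme, Eno2, was called.

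In the preparatory steps, glucose is phosphorylated by hexokinase, turned to fructose phosphate by Gpi1 and phosphorylated again by phosphofructokinase. Hk1, the hexokinase of most tissues, was at 47.7 to 51.1 FPKM in Tyr-L and 59.1 to 61.7 FPKM in Tyr-H, a log2 fold change of 0.29 (limma adjusted p = 0.00014). Hk2, the inducible hexokinase, was at 31.3, 28.6 and 25.9 FPKM in Tyr-L and at 31.0, 32.5 and 34.8 FPKM in Tyr-H, so the groups overlapped through Tyr-L 1. Its log2 fold change of 0.20 had an adjusted p of 0.037 by limma, which rose to between 0.078 and 0.13 without Tyr-L 2, Tyr-L 3, Tyr-H 2 or Tyr-H 3. After rescaling to equal totals the log2 fold change of Hk2 was 0.10 (limma adjusted p = 0.19). Hk1 overlaps the antisense gene Hk1os and Hk2 overlaps Gm17034. Gpi1 (glucose-6-phosphate isomerase) rose from 301 to 306 FPKM in the Tyr-L libraries to 375 to 388 FPKM in the Tyr-H libraries, a log2 fold change of 0.34 (limma adjusted p = 1.6e-05), and it overlaps Gm26762.

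Phosphofructokinase has a liver, a muscle and a platelet form, and the platelet form Pfkp was the most abundant here. Pfkp was at 72.1, 68.3 and 68.9 FPKM in Tyr-L and at 108, 109.9 and 110.3 FPKM in Tyr-H, with a log2 fold change of 0.65 (limma adjusted p = 7.8e-07). Next to Eno2 this was the largest fold change among the enzymes. The liver form Pfkl rose by less, with 29.1 to 32.6 FPKM in Tyr-L against 35.9 to 43.7 FPKM in Tyr-H and a log2 fold change of 0.40 (limma adjusted p = 0.0013). The muscle form Pfkm was at 12.1 to 13.2 FPKM and 13.1 to 13.9 FPKM, overlapping, with a log2 fold change of 0.12 (limma adjusted p = 0.08, and 0.042 without Tyr-L 3). Pfkm passed as higher under median ratio scaling, at 0.28, and quantile normalization, at 0.27 (limma adjusted p = 0.0024 and 0.0027), while it was 0.03 after rescaling to equal totals. Pfkm overlaps Gm26513 on the same strand and Senp1 on the opposite strand, and Pfkp overlaps Pitrm1 on the opposite strand, while Pfkl overlaps no annotated gene.

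The next enzymes were among the most abundant transcripts of these cells. Aldoa, the main aldolase, was at 1134 to 1153.5 FPKM in Tyr-L and 1421 to 1578 FPKM in Tyr-H, a log2 fold change of 0.39 (limma adjusted p = 6.2e-05). Tpi1 (triose phosphate isomerase) rose by 0.43 (limma adjusted p = 2.5e-05), with 662 to 699 FPKM in the Tyr-L libraries and 874 to 951 FPKM in the Tyr-H libraries. Pgk1 (phosphoglycerate kinase, which makes ATP) rose by 0.36 (limma adjusted p = 3.1e-05), from 1119 to 1163.5 FPKM to 1433 to 1484 FPKM, although its adjusted p was 0.058 under quantile normalization. The groups of these 3 genes lay well apart. Aldoc, the aldolase of brain, was at 4.58 to 5.77 FPKM in Tyr-L and 3.96 to 4.51 FPKM in Tyr-H, a log2 fold change of -0.23 that did not pass (limma adjusted p = 0.089). For Aldoc it was -0.12 without Tyr-L 1, -0.08 under median ratio scaling and -0.05 under quantile normalization, and it passed as lower after rescaling to equal totals, at -0.33 (limma adjusted p = 0.023). Aldoa overlaps Fam57b and Tpi1 overlaps Spsb2, each on the opposite strand.

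Gapdh, which oxidizes glyceraldehyde phosphate and is widely used as a reference gene, was at 1432, 1350 and 1266 FPKM in Tyr-L libraries 1, 2 and 3 and at 1483, 1588 and 2033 FPKM in Tyr-H libraries 1, 2 and 3. Tyr-H lay above Tyr-L in all libraries, with Tyr-H 3 far above the other two. The log2 fold change was 0.32 ± 0.10 (SE, limma adjusted p = 0.024), and the adjusted p was 0.059 without Tyr-L 2 and 0.083 without Tyr-L 3. Without Tyr-H 3 the log2 fold change was 0.19 (limma adjusted p = 0.021), and it was 0.48 under median ratio scaling and 0.15 (limma adjusted p = 0.065) under quantile normalization.

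Gapdh also had the most near-identical copies, which makes its value uncertain: 73 other annotated genes, mostly processed pseudogenes, match its transcript at 95% identity or more over at least 300 bases, and 67 of them had FPKM values of their own. The summed level of these copies was 3919, 3867 and 3868 FPKM in Tyr-L and 4878, 4856 and 4969 FPKM in Tyr-H, which is 288% of the level of Gapdh itself in both groups. Thus the copies carried more FPKM than the gene and differed between the groups by the same factor, 1.26. The largest copy was Gm7336, with 1307 to 1342 FPKM in Tyr-L and 1579 to 1671 FPKM in Tyr-H. With the copies added, Gapdh was at 5351, 5217 and 5134 FPKM in Tyr-L and 6361, 6444 and 7002 FPKM in Tyr-H, and the log2 fold change was 0.33 ± 0.05 (SE, limma adjusted p = 0.00059), so the error was smaller and the fold change about the same. How fragments were divided between Gapdh and its copies is not given in the sources used here. Gapdh overlaps Iffo1 on the opposite strand.

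**Figure D2:**
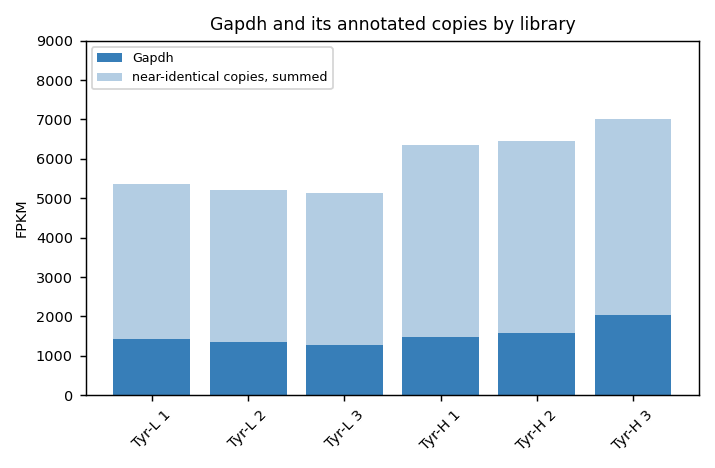
FPKM of Gapdh (dark) and the summed FPKM of its near-identical annotated copies (light) in each of the 6 libraries, as stacked bars from 0. The copies take up most of each bar, and the stacked total is 5134 to 5351 FPKM in Tyr-L and 6361 to 7002 FPKM in Tyr-H.

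Copies of the other genes were few. For Pgk1 they summed to 9.37% of its own level in Tyr-L and 10.3% in Tyr-H, for Pgam1 to 6.82% and 7.45%, for Eno1 to 1.79% and 1.91% and for Bnip3l to 1.52% and 1.82%. Adding them changed the side of the threshold for none of the 37 genes.

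The final steps did not move together. Pgam1 (phosphoglycerate mutase) was at 425 to 432 FPKM in Tyr-L and 441 to 458 FPKM in Tyr-H. Its log2 fold change of 0.07 did not pass (limma adjusted p = 0.094), and was -0.03 after rescaling to equal totals, -0.08 under quantile normalization and 0.22 under median ratio scaling. Eno1, the ubiquitous enolase and the most abundant of the 37 genes, was at 2203, 2167 and 2169 FPKM in Tyr-L and at 2555, 2693 and 2645 FPKM in Tyr-H. It passed as higher with a log2 fold change of 0.27 (limma adjusted p = 0.00034), though quantile normalization gave -0.09. Pkm (pyruvate kinase) was at 1157, 1132 and 1150.5 FPKM in Tyr-L and at 1139, 1167 and 1179 FPKM in Tyr-H, with overlap. Its log2 fold change of 0.02 (limma adjusted p = 0.66) became -0.08 after rescaling to equal totals, -0.19 under quantile normalization (limma adjusted p = 0.0021) and 0.17 under median ratio scaling (limma adjusted p = 0.0024), so its direction depended on the scaling. The table gives 1 value for Pkm and does not tell its M1 and M2 forms apart, and Pkm overlaps Gm49759 on the same strand.

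Eno2, the enolase of neurons (ENSMUSG00000004267, chr6:124760053-124769673), was at 2.68, 2.95 and 2.73 FPKM in Tyr-L and at 10.0, 12.3 and 13.1 FPKM in Tyr-H. The log2 fold change was 2.04 ± 0.10 (SE, limma adjusted p = 7.3e-07), the largest of the 37 genes, and it stayed between 1.96 and 2.15 when any 1 library was left out. Eno2 was still a minor enolase, at 0.128% ± 0.0073 (SD, n = 3) of the summed FPKM of Eno1 and Eno2 in Tyr-L and 0.447% ± 0.052 (SD, n = 3) in Tyr-H. Neither Eno1 nor Eno2 overlaps another annotated gene.

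The 2 lactate dehydrogenase subunits moved apart. Ldha, the subunit prominent in muscle and in many tumors, was at 1161, 1089 and 1074 FPKM in Tyr-L and at 998, 1010 and 1039 FPKM in Tyr-H. The log2 fold change was -0.12 (limma adjusted p = 0.027), but it was 0.03 under median ratio scaling, and the adjusted p was 0.11, 0.065 and 0.083 without Tyr-L 1, Tyr-H 1 or Tyr-H 2. Ldhb, the subunit prominent in heart, was at 131, 127 and 125 FPKM in Tyr-L and at 189, 190.3 and 201 FPKM in Tyr-H, with a log2 fold change of 0.60 (limma adjusted p = 1.5e-06). Ldhb therefore made up 10.1%, 10.5% and 10.4% of the summed FPKM of both subunits in Tyr-L and 15.96%, 15.9% and 16.2% in Tyr-H. This share does not depend on a common scaling factor. Neither gene overlaps another annotated gene.

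Together the 17 enzymes held 2.20%, 2.16% and 2.16% of the summed FPKM of all genes in Tyr-L and 2.36%, 2.44% and 2.47% in Tyr-H, and with the Gapdh copies 3.02% to 3.05% and 3.39% to 3.48%.

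**Figure D3:**
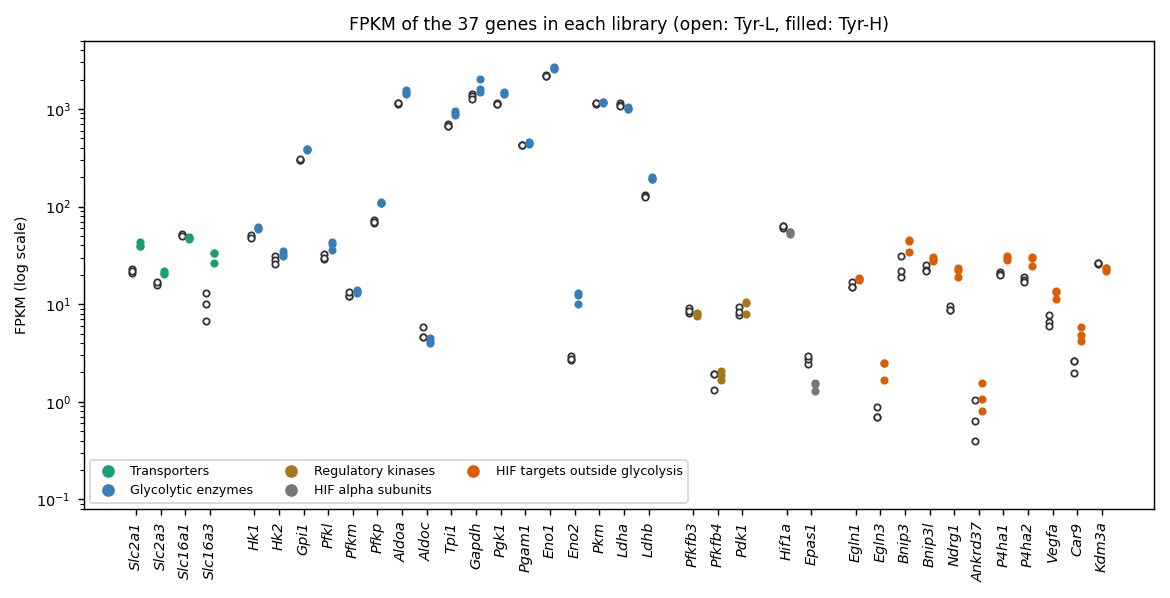
FPKM of each of the 37 genes in each library on a log axis, open points for the 3 Tyr-L libraries and filled points for the 3 Tyr-H libraries, grouped by role. Eno1 is the most abundant at 2167 to 2693 FPKM and Ankrd37 the least abundant at 0.399 to 1.57 FPKM, and open and filled points lie well apart for Eno2, Slc16a3, Ndrg1 and Egln3.

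None of the 3 regulatory kinases passed the test. Pfkfb3, which makes the activator of phosphofructokinase, was at 8.18 to 9.03 FPKM in Tyr-L and 7.53 to 8.06 FPKM in Tyr-H, without overlap. Pfkfb3 overlaps Gm37975 on the same strand and Gm10851 on the opposite strand. Its log2 fold change was -0.13 (limma adjusted p = 0.096) and turned to 0.02 under median ratio scaling and 0.03 under quantile normalization. Pfkfb4, a second enzyme of that kind, was at 1.31 to 1.92 FPKM and 1.69 to 2.07 FPKM, a log2 fold change of 0.14 (limma adjusted p = 0.48) that was -0.03 without Tyr-L 3. Pdk1, which keeps pyruvate out of the mitochondrial citrate cycle, was at 7.66 to 9.25 FPKM in Tyr-L and at 7.93, 10.4 and 10.2 FPKM in Tyr-H libraries 1, 2 and 3. The log2 fold change of Pdk1 was 0.17 (limma adjusted p = 0.22) and 0.29 (limma adjusted p = 0.02) without Tyr-H 1. It was 0.10 without Tyr-L 2 or Tyr-H 2, 0.11 without Tyr-H 3 and 0.07 after rescaling to equal totals, and it passed as higher under median ratio scaling and quantile normalization, at 0.32 and 0.33.

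Both HIF alpha mRNAs were lower in Tyr-H as deposited. Hif1a was at 62.9, 59.9 and 63.9 FPKM in Tyr-L and at 55.4, 55.2 and 52.8 FPKM in Tyr-H, with a log2 fold change of -0.19 (limma adjusted p = 0.0021). This is close to the median of all genes, and under median ratio scaling the log2 fold change was -0.04 (limma adjusted p = 0.43). Epas1, which encodes HIF-2 alpha, was at 2.41, 2.76 and 2.98 FPKM in Tyr-L and at 1.56, 1.53 and 1.30 FPKM in Tyr-H. Its log2 fold change of -0.85 ± 0.13 (SE, limma adjusted p = 0.0004) was well beyond the shift of all genes, and all Tyr-H libraries were below all Tyr-L libraries. Hif1a overlaps Gm49321 on the same strand and Gm15283 on the opposite strand, and Epas1 overlaps AC096777.1 on the same strand.

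Among 18 other genes that regulate HIF or act with it, 8 passed as higher, 5 as lower and 5 did not pass, with a median log2 fold change of 0.03. Over all tested genes 17.9% passed as higher and 39.9% as lower, with a median of -0.15. The 5 lower genes became 2 under median ratio scaling and under quantile normalization and 9 after rescaling to equal totals. Arnt, the partner with which HIF alpha binds DNA, was at 21.02, 21.5 and 22.2 FPKM in Tyr-L and at 14.3, 14.5 and 13.8 FPKM in Tyr-H, a log2 fold change of -0.60 (limma adjusted p = 6.1e-06). The coactivators Crebbp and Ep300 were also lower, by -0.64 and -0.30 (limma adjusted p = 0.00048 and 0.0077), Ep300 by -0.15 relative to the median of all genes. Vhl, which recognizes hydroxylated HIF alpha for degradation, was higher by 0.27, from 13.3 to 14.3 FPKM to 16.1 to 17.5 FPKM (limma adjusted p = 0.0017). Siah1a and Siah2, ligases that act on the Egln proteins, were higher by 0.54 and 0.67 (limma adjusted p = 0.00019 and 7.6e-05). Hif3a, which encodes a further HIF alpha subunit, was the 1 called gene of this list. It was at 0, 0.0259 and 0.0221 FPKM in Tyr-L and 0.304, 0.264 and 0.220 FPKM in Tyr-H. Hif3a thus passed the filter on low values only through Tyr-H, and its level is too low for a fold change to be read. The most abundant gene of the list was Rack1, a scaffold protein, with a log2 fold change of 0.49 (limma adjusted p = 3.9e-06).

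Of the 11 HIF targets outside glycolysis, 9 passed as higher in Tyr-H, Kdm3a passed as lower and Ankrd37 did not pass, with a median log2 fold change of 0.70. Egln3, Ndrg1 and Car9 were called higher. Over all tested genes 17.9% passed as higher and 39.9% as lower, and 2.96% were called higher.

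The prolyl hydroxylases Egln1 and Egln3 mark HIF alpha and are themselves HIF targets. Egln3 (ENSMUSG00000035105, chr12:54178981-54203860) was at 0.698, 0.891 and 0.701 FPKM in Tyr-L libraries 1, 2 and 3 and at 1.69, 2.47 and 2.52 FPKM in Tyr-H libraries 1, 2 and 3. The log2 fold change was 1.42 ± 0.18 (SE, limma adjusted p = 0.00016), from about 35 to 50 fragments per Tyr-L library and 89 to 141 per Tyr-H library. With a pseudocount of 1 FPKM in place of 0.1 it was 0.86, under the threshold. Egln1, the main HIF hydroxylase, was at 14.8 to 16.9 FPKM in Tyr-L and 17.5 to 18.4 FPKM in Tyr-H, a log2 fold change of 0.21 (limma adjusted p = 0.011) that did not pass after rescaling to equal totals (0.12, limma adjusted p = 0.11).

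Ndrg1, a stress-response gene induced by hypoxia and a known suppressor of metastasis in several tumors (ENSMUSG00000005125, chr15:66929318-66969640), was at 9.69, 8.72 and 8.63 FPKM in Tyr-L and at 19.1, 22.1 and 23.3 FPKM in Tyr-H. It was called, with a log2 fold change of 1.24 ± 0.08 (SE, limma adjusted p = 2.3e-06), and every Tyr-H library lay above every Tyr-L library by a wide margin. Ndrg1 overlaps Gm17035 and Gm2895 on the opposite strand.

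Car9, the carbonic anhydrase at the cell surface that removes acid (ENSMUSG00000028463, chr4:43506966-43513729), was at 2.60, 2.60 and 1.99 FPKM in Tyr-L and at 4.24, 4.86 and 5.83 FPKM in Tyr-H. Its log2 fold change of 1.02 ± 0.14 (SE, limma adjusted p = 0.00024) was just past the threshold, and fell under it without Tyr-L 3 (0.90), without Tyr-H 3 (0.91), after rescaling to equal totals (0.95) and with a pseudocount of 1 (0.81). Car9 overlaps Gm12454 on the opposite strand. Vegfa, the growth factor of blood vessels, was just short of the threshold, at 6.54, 7.69 and 6.02 FPKM in Tyr-L and 11.3, 13.3 and 13.7 FPKM in Tyr-H. The log2 fold change of Vegfa was 0.91 ± 0.10 (SE, limma adjusted p = 5.9e-05), and 1.01 without Tyr-L 2, 1.06 under median ratio scaling and 1.07 under quantile normalization. Thus Car9 and Vegfa lay on either side of the threshold by less than their errors.

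Bnip3 and Bnip3l encode mitophagy receptors. Bnip3 was at 31.2, 18.8 and 21.9 FPKM in Tyr-L libraries 1, 2 and 3 and at 34.5, 44.0 and 45.7 FPKM in Tyr-H libraries 1, 2 and 3. Tyr-L 1 and Tyr-H 1 were close to each other and the other libraries lay far apart. The log2 fold change was 0.81 ± 0.17 (SE, limma adjusted p = 0.0028), and 1.02 without Tyr-L 1. Bnip3l rose by 0.33 (limma adjusted p = 0.001), with 22.1 to 25.2 FPKM in Tyr-L and 27.9 to 30.2 FPKM in Tyr-H. Bnip3 overlaps Gm45507 and Gm18258 on the opposite strand.

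P4ha1 and P4ha2 encode the catalytic subunits of the enzyme that hydroxylates proline in collagen. P4ha1 was at 19.9 to 21.6 FPKM in Tyr-L and 28.3 to 31.1 FPKM in Tyr-H, a log2 fold change of 0.53 (limma adjusted p = 2.3e-05). P4ha2 was at 16.8 to 18.9 FPKM and 24.4 to 30.5 FPKM, a log2 fold change of 0.65 (limma adjusted p = 0.00013). The groups of both genes did not overlap, and neither gene overlaps another annotated gene.

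Ankrd37, an ankyrin repeat protein induced by hypoxia, was at 1.03, 0.638 and 0.399 FPKM in Tyr-L and at 0.812, 1.07 and 1.57 FPKM in Tyr-H, which rests on about 7 to 28 fragments per library. The groups overlapped, and the log2 fold change of 0.70 ± 0.32 (SE) did not pass (limma adjusted p = 0.088). Without Tyr-L 3 it was 0.41 and without Tyr-H 3 it was 0.47 (limma adjusted p = 0.28 and 0.27), and with a pseudocount of 1 it was 0.35. It passed without Tyr-L 1, at 1.00 (limma adjusted p = 0.022), and under median ratio scaling and quantile normalization, at 0.83 and 0.89. Ankrd37 overlaps Ufsp2 and Lrp2bp on the opposite strand. Kdm3a, a histone H3 lysine 9 demethylase, was the 1 target that was lower, at 26.7, 25.7 and 26.6 FPKM in Tyr-L and 21.98, 23.6 and 23.3 FPKM in Tyr-H. The log2 fold change of Kdm3a was -0.20 (limma adjusted p = 0.0034), near the median of all genes, and -0.04 (limma adjusted p = 0.39) under median ratio scaling.

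The 11 HIF targets had a higher median log2 fold change than the enzymes, 0.70 against 0.32, a difference of 0.38, but the lists overlapped over most of their ranges. The 30 other HIF targets described below went the other way, with a median of 0.24, under that of the enzymes, and with 0.39 against 0.48 under median ratio scaling. The order of the medians thus depended on which HIF targets were taken. No test was run between the lists, since their genes share the libraries and were chosen with earlier results known. The range was -0.23 to 2.04 for the enzymes and -0.20 to 1.42 for the HIF targets. Called higher were 3 of 11 HIF targets and 1 of 17 enzymes, beside 2.96% of all tested genes.

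The libraries of a group were not alike for these genes. Relative to each gene's mean over the 6 libraries, the median of the enzymes was -0.12, -0.16 and -0.20 in Tyr-L libraries 1, 2 and 3 and 0.09, 0.17 and 0.19 in Tyr-H libraries 1, 2 and 3 on the log2 scale. For the HIF targets the medians were -0.20, -0.32 and -0.50 in Tyr-L and 0.15, 0.45 and 0.56 in Tyr-H, and for all tested genes 0.08, 0.07 and 0.07 in Tyr-L and -0.08, -0.06 and -0.07 in Tyr-H. Tyr-H 1 was the lowest Tyr-H library for 11 of 11 HIF targets and 14 of 17 enzymes, whereas it was the lowest for 38.2% of all tested genes. Tyr-L 1 was the highest Tyr-L library for 9 of 11 HIF targets and 12 of 17 enzymes, beside 34.8% of all genes. In the other HIF targets described below, Tyr-H 1 was the lowest for 11 of 30 and Tyr-L 1 the highest for 18 of 30, so the order of the Tyr-H libraries was near that of all genes there.

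The labels give nothing that sets the first library of each group apart, and the cause of the order was not tested. Without both first libraries, an alternative chosen after the order was seen, the median of the HIF targets was 0.98 and the difference from the enzymes was 0.63. In that fit, with 2 libraries a group, Bnip3 at 1.14 and Ankrd37 at 1.21 (limma adjusted p = 0.011) joined the calls. The size of the difference for HIF targets therefore varied with the library, while every library of Tyr-H had a median above every library of Tyr-L.

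**Figure D4:**
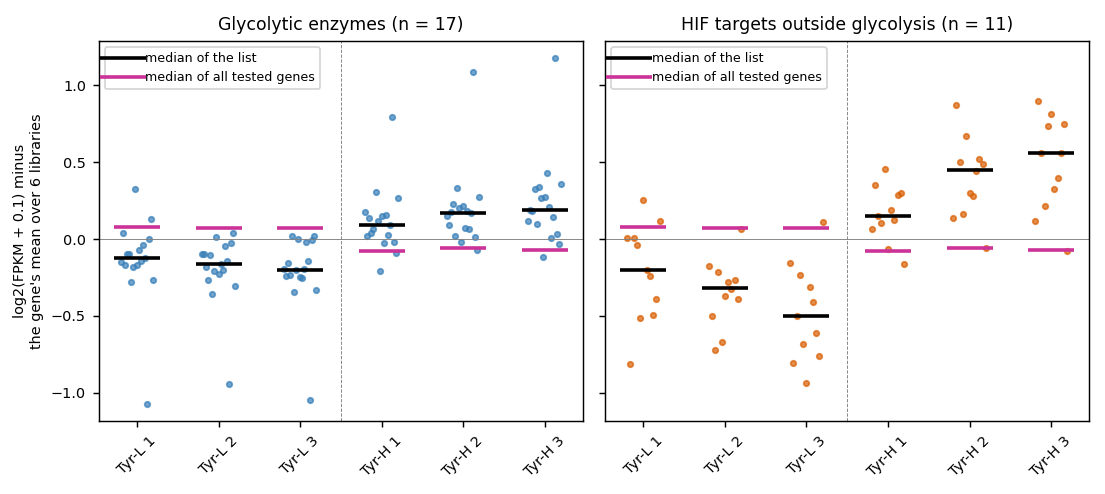
Level of each of the 17 glycolytic enzymes (left) and the 11 HIF targets outside glycolysis (right) in each library, as log2(FPKM + 0.1) minus the gene's mean over the 6 libraries; black bars are the medians of the list and pink bars the medians of all tested genes. The HIF targets run from -0.50 in Tyr-L 3 to 0.56 in Tyr-H 3, a wider span than the enzymes at -0.20 to 0.19, and the first library of each group lies nearest to 0 in both lists.

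FPKM is set per length, so the share of an isozyme in its family can be compared between the groups without a common scaling factor. Of 13 such shares, the groups did not overlap for 9, each with p = 0.1 by the exact permutation test and an adjusted p of 0.144 over the 13 shares, so no share passed the test. Of single genes, 20.2% lay above and 43.8% below without overlap, so shares that do not overlap are no rarity here, and the 3 shares of the phosphofructokinases sum to the whole and are not independent. Beside the shares of Slc16a3, Ldhb and Eno2 given above, the share of Egln3 in Egln1 and Egln3 was 3.98%, 5.67% and 4.46% in Tyr-L and 8.79%, 11.8% and 12.2% in Tyr-H. The share of Slc2a3 in both glucose carriers was 42.7% ± 1.0 (SD, n = 3) in Tyr-L and 34.0% ± 1.2 (SD, n = 3) in Tyr-H, since Slc2a1 differed more than Slc2a3. Pfkp made up 61.9% ± 0.43 (SD, n = 3) of the phosphofructokinases in Tyr-L and 67.1% ± 1.5 (SD, n = 3) in Tyr-H. The shares of Hk2, Pfkfb4, Bnip3l and P4ha2 overlapped between the groups, Hk2 with 36.7% ± 2.0 (SD, n = 3) and 35.1% ± 1.8 (SD, n = 3).

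**Figure D5:**
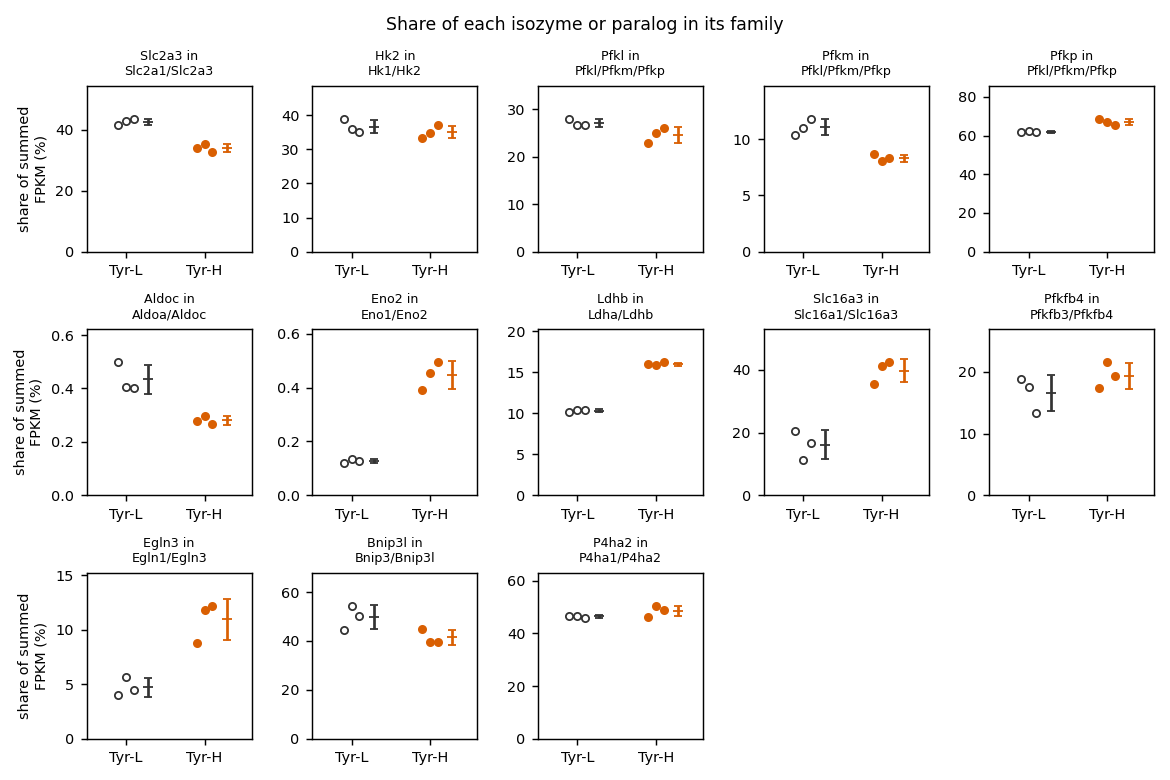
Share of 1 isozyme or paralog in the summed FPKM of its family, in percent, for 13 shares, with each library as a point (open Tyr-L, filled Tyr-H) and the mean with its SD beside the points, on axes that start at 0. The shares of Slc16a3, Ldhb, Egln3 and Eno2 are higher in all Tyr-H libraries (exact permutation p = 0.1 each), and those of Hk2, Pfkfb4, Bnip3l and P4ha2 overlap.

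Other genes of glucose use gave a mixed picture. A list of 52 genes for glucose carriers, further glycolytic isozymes, gluconeogenesis, glycogen and the pentose phosphate pathway had 41 genes listed and 36 tested, of which 18 passed as higher, 9 as lower and 9 did not pass, with a median of 0.21. Over all tested genes 17.9% passed as higher and 39.9% as lower. The 9 lower genes became 4 under median ratio scaling and under quantile normalization. Pck2, the mitochondrial enzyme that makes phosphoenolpyruvate, was called higher, at 6.84, 8.72 and 7.74 FPKM in Tyr-L and 44.5, 44.6 and 46.5 FPKM in Tyr-H, a log2 fold change of 2.53 (limma adjusted p = 8.2e-08). The oxidative pentose phosphate enzymes G6pdx, Pgls and Pgd were higher by 0.47, 0.38 and 0.35 (limma adjusted p = 1.5e-05, 7.6e-05 and 2.9e-05), and so were Tkt by 0.34 and the glycogen synthase Gys1 by 0.60 (limma adjusted p = 2.1e-05 and 6.5e-06). In the same pathways Taldo1 at -0.06 and Gbe1 at 0.10 did not pass (limma adjusted p = 0.21 and 0.2). The glycogen phosphorylase Pygb was lower by -0.28 (limma adjusted p = 0.0047), which is -0.12 relative to the median of all genes. Rpe and Rpia, which interconvert pentose phosphates, were lower by -0.23 and -0.26 (limma adjusted p = 0.0047 and 0.007), which is -0.08 and -0.11 relative to the median of all genes. Pfkfb2, a further enzyme of the kind of Pfkfb3, was lower by -0.81 (limma adjusted p = 3.4e-05). Slc2a4, the glucose carrier regulated by insulin, was called lower, at 1.10, 1.04 and 1.00 FPKM in Tyr-L and 0.275, 0.155 and 0.274 FPKM in Tyr-H. The calls of Pdk2 (higher) and Slc16a8 (lower) rest on levels under 0.6 FPKM. Slc16a8, counted among the 9 lower genes, cleared the filter on low values only because of Tyr-L. Its mean was 0.337 there, against 0.0554 for the Tyr-H libraries. The level of Slc16a8 is therefore too low for the size of its difference to be read. Bsg, the chaperone of the lactate carriers and the most abundant gene of the list, was higher by 0.18 (limma adjusted p = 0.0028).

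Among 38 further HIF targets outside glycolysis, 33 were listed and 30 tested, of which 15 passed as higher, 5 as lower and 10 did not pass, with a median of 0.24. Over all tested genes 17.9% passed as higher and 39.9% as lower, and 2.96% were called higher and 5.78% called lower. The 8 called higher included Vldlr, a lipoprotein receptor, at 0.331, 0.305 and 0.272 FPKM in Tyr-L and 2.95, 3.14 and 3.73 FPKM in Tyr-H, a log2 fold change of 3.06 (limma adjusted p = 7.8e-07). Hmox1, which degrades heme and also responds to oxidative stress, was at 20.0, 20.0 and 20.4 FPKM in Tyr-L and 76.9, 78.1 and 80.7 FPKM in Tyr-H. Ero1l, an oxidase of protein folding in the endoplasmic reticulum, was at 58.6, 48.1 and 52.7 FPKM in Tyr-L and at 181, 209 and 208 FPKM in Tyr-H. Both lay far above their Tyr-L values in every Tyr-H library, with log2 fold changes of 1.96 and 1.91 (limma adjusted p = 1.1e-08 and 2.5e-07). Stc1, Ddit4, Car12 and Loxl2 were called with log2 fold changes of 1.73, 1.57, 1.35 and 1.06, Loxl2 at levels of at most 1.08 FPKM. Loxl4 was also called, at 0.0385, 0.0718 and 0.0590 FPKM in Tyr-L and 0.223, 0.290 and 0.217 FPKM in Tyr-H, but it passed the filter on low values only through Tyr-H and its level is too low for a fold change to be read. Ddit4, a stress-induced inhibitor of mTOR, is also a target of other stress pathways. The 5 lower genes were the repressors Bhlhe40 and Bhlhe41, Fut11, Plod2 and Wsb1, with log2 fold changes of -0.37, -0.73, -0.94, -0.42 and -0.31. Plod2, a lysyl hydroxylase of collagen, fell while the prolyl hydroxylases P4ha1 and P4ha2 rose. The most abundant tested gene of the list was Tfrc, the transferrin receptor, with a log2 fold change of 0.38 (limma adjusted p = 1.6e-05).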

How the data were processed

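RNA from 3 Tyr-L and 3 Tyr-H libraries had been prepared with an mRNA kit and sequenced from both ends (150 bp). The authors deposited FPKM values for each library. Trimmomatic, HISAT2, HISAT and GRCm38.p6 are listed in the submitters' processing notes without roles or versions; the quantifier, annotation and strand setting are not given in the sources used here. Unlisted genes were taken as 0. Groups came from the labels. The members and lists were chosen with earlier results of these data known.

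Levels were compared as log2(FPKM + 0.1) for the 14336 genes averaging 0.1 FPKM or more, using limma 3.58.1 in R 4.3.3 (trended eBayes, p-values adjusted by Benjamini-Hochberg across these genes). Calls required an adjusted p up to 0.05 together with a log2 fold change of 1 or more in size. Single genes and shares also had an exact two-sided permutation test. On simulated data with 14225 tested genes, 175 of 194 changed genes and 1 unchanged gene were called. The simulation changed 200 genes, each by more than the call threshold, with independent noise and no shift of all genes. Smaller changes, such as those of most members, were not simulated, so their recovery is not known. All 37 members are named, with called, most abundant or directly relevant genes of the wider lists. The genes Crebbp, Ep300, Vhl, Siah1a, Siah2, G6pdx, Pgls, Pgd, Tkt, Gys1, Rpe, Rpia, Pfkfb2, Bhlhe40, Bhlhe41, Fut11, Plod2 and Wsb1 were chosen after their values were seen. The same holds for Egln2, Eno3, Pdk3, Taldo1, Gbe1 and Pygb. Coordinates and overlaps are from GENCODE M21 (GRCm38), count from 1, and near-identical copies were found with minimap2. Elob and Eloc were matched by identifier. Alternatives were other pseudocounts, filters, scalings and variance models, the replicate block, each library left out, both first libraries left out, and copies added, the last pair chosen after seeing the data. Fragment numbers are estimates that cover counting error only.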

Additional observations from a re-analysis of the deposited data

How the results depend on the processing

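The 24 increases among the 37 genes kept their direction under every alternative except Eno1 under quantile normalization (-0.09). Other reversed signs were those of genes with small differences: Slc16a1 (0.04), Ldha (0.03) and Pfkfb3 (0.02) under median ratio scaling, Pfkfb3 (0.03), Pgam1 (-0.08) and Pkm (-0.19) under quantile normalization, Pgam1 (-0.03) and Pkm (-0.08) after rescaling to equal totals, and Pfkfb4 (-0.03) without Tyr-L 3. The number of members called higher was 5, and 3 with a pseudocount of 1, which shrinks the fold changes of low genes; it was 4 to 6 with 1 library left out. The members that passed as lower were 5, but 1 under median ratio scaling, 3 without a variance trend, 3 without both first libraries and 3 to 5 with 1 library left out. The enzyme median of 0.32 became 0.23, 0.48 and 0.25 under equal totals, median ratio scaling and quantile normalization, and 0.28 to 0.35 with 1 library left out. The HIF target median of 0.70 became 0.89 under quantile normalization, 0.98 without both first libraries and 0.61 to 0.90 with 1 library left out. The difference of these medians, 0.38, became 0.64 and 0.63 in the first 2 of these and ranged from 0.30 to 0.56 in the third. Over all genes, 425 called higher became 185 with a pseudocount of 1 and 247 when a mean level of 1 FPKM was required, and 829 called lower became 203 and 393, with 1287 after rescaling to equal totals and 494 under quantile normalization; with 1 library left out the ranges were 385 to 451 and 741 to 849. These causes were not tested beyond what each alternative changes by construction. With the replicate number as a block, 430 genes were called higher and 828 lower, and Hk2 and Ldha no longer passed (limma adjusted p = 0.068 and 0.089), with no other member changed. Hk2, Gapdh and Ldha no longer passed with no filter on low values (limma adjusted p = 0.074, 0.065 and 0.068) nor, together with Slc16a1, without a variance trend (0.11, 0.089, 0.078 and 0.082). Same-numbered libraries did not deviate together over all genes, with correlations of 0.0223, 0.0132 and -0.0834, beside -0.106 to 0.0916 for libraries with different numbers. A shared preparation of same-numbered libraries was not tested. Depth limits Ankrd37, Egln3 and the wider genes under 1 FPKM most, and the 3 libraries a group cannot give an exact permutation p under 0.1.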
